A study of Sus scrofa with 27 samples.

Results

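The genes described here are 36 pig genes that serve protein folding in the endoplasmic reticulum (ER) and the unfolded protein response. They comprise 12 chaperones and co-chaperones, 6 genes of disulfide bond formation, 8 of ER-associated degradation, 4 that encode sensors or the transcription factor XBP1, and 6 of the translocation channel and its partner proteins. Members were taken by gene symbol, each matching exactly 1 pig Ensembl identifier, and were kept at a mean count of at least 5 over 27 libraries. All 36 passed, among 11384 named genes that were tested and 35670 identifiers in the count files.

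RNA was sequenced from mural granulosa cells (GCs), the layer of steroid-producing cells that lines the wall of the ovarian follicle, cut out by laser capture microdissection. All sows were wild type, Large White times Norwegian Landrace, in their first parity, and were sampled on day 2 post-weaning, with both groups fed alike from weaning on. Daily feed in the final 2 weeks of lactation was 6.5 kg for the 13 FF sows and 3.25 kg for the 14 RES sows. Each library came from the largest healthy follicle of 1 sow. The study had picked the RES sows with the highest and the FF sows with the lowest loss of body weight from larger groups. Diet, weight loss and follicle size therefore cannot be told apart here.

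Proteins destined for secretion or for membranes enter the ER through the SEC61 channel, are folded by chaperones and acquire disulfide bonds from protein disulfide isomerases. Proteins that fail to fold are moved back to the cytosol and degraded. When unfolded proteins build up, sensors in the ER membrane (IRE1, encoded by ERN1, ATF6 and PERK) raise the transcription of folding and degradation genes and lower translation. GCs secrete large amounts of inhibin, activin, follistatin and matrix proteins, and all of these pass through the ER. IRE1 acts by splicing XBP1 mRNA and ATF6 by being cleaved, and neither step is visible in gene counts.

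Known target genes of ATF6 and XBP1 carry ER stress response elements in their promoters. The first form, ERSE, is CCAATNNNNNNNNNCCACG, and the second, ERSE-II, is ATTGGNCCACG. Both were searched on both strands from 250 bases before to 50 bases after the annotated start of each gene (RefSeq, Sscrofa11.1), a window of 300 bases. All 36 members had such a window. ERSE was found in 7 members and ERSE-II in 4 others, so 11 of 36 held an exact match. The same search found ERSE in 12 of 10591 promoters of tested genes (0.113%) and in 16 of all 20638 promoters (0.0775%). For ERSE-II these shares were 0.132% and 0.0921%. These totals include the members. Since the members were listed for their part in folding and in this response, a higher share among them was likely beforehand. The members' sites are printed 5′ to 3′ on the strand of the motif, with its fixed letters in capitals, because most of the genes that differed between the diets are among them.
HSPA5 (ERSE, chr1:265934953-265934971, minus strand): CCAATcagcggcctCCACG
HSP90B1 (ERSE, chr5:80531133-80531151, minus strand): CCAATtggaaggagCCACG
HSP90B1 (ERSE, chr5:80531029-80531047, plus strand): CCAATcgggctgcaCCACG
CALR (ERSE, chr2:66102290-66102308, plus strand): CCAATgaaggtcgaCCACG
CANX (ERSE, chr2:78915956-78915974, minus strand): CCAATccccacactCCACG
HYOU1 (ERSE-II, chr9:46277178-46277188, plus strand): ATTGGcCCACG
HYOU1 (ERSE-II, chr9:46277069-46277079, plus strand): ATTGGgCCACG
SDF2L1 (ERSE-II, chr14:50251752-50251762, plus strand): ATTGGtCCACG
MANF (ERSE-II, chr13:33658173-33658183, minus strand): ATTGGtCCACG
CRELD2 (ERSE, chr5:716803-716821, plus strand): CCAATccgagctcgCCACG
PDIA6 (ERSE, chr3:125751917-125751935, plus strand): CCAATaagccgcggCCACG
SEL1L (ERSE-II, chr7:104283354-104283364, plus strand): ATTGGaCCACG
XBP1 (ERSE, chr14:46016590-46016608, minus strand): CCAATcgtggagggCCACG

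HSP90B1 and HYOU1 each held a pair of sites. The 250 bases before their annotated starts are shown on the gene's strand, with the fixed letters of the sites, or their complement, in capitals, and in HYOU1 also the element TGACGTG described below them.
HSP90B1 (chr5:80531017-80531266, minus strand): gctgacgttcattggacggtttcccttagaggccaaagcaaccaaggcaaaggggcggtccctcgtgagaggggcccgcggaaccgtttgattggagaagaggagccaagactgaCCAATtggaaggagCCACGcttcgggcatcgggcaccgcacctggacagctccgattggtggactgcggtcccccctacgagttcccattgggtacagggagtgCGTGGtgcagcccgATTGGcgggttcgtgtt
HYOU1 (chr9:46277057-46277306, minus strand): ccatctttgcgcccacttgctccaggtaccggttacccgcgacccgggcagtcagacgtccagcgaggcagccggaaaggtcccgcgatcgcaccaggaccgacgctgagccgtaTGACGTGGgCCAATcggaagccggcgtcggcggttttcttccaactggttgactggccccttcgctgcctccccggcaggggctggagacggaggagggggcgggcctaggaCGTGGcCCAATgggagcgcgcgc

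The HSPA5 site spanned the annotated start, from 12 bases before it to 6 bases after, and every other site in the list above lay upstream. Another element, the XBP1-binding core TGACGTG, was present in HYOU1, where it overlapped the more distant ERSE-II site, and in SSR4, against 2.17% of tested promoters. The separate parts of the elements were common everywhere. CCACG occurred in 28 members and 45.1% of tested promoters, and ATTGG in 26 members and 36.1%. With 1 mismatch allowed in the fixed letters, 14 members held ERSE, against 1.82% of tested promoters. HERPUD1 gained an ERSE-II match when the start of any annotated transcript was used. A match is a sequence of letters and was not shown to be bound in these cells.

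Restricted feeding was compared with full feeding to ask whether the genes of the folding machinery differed in GCs after weaning. In RES GCs 12 members were higher and 1 was lower (edgeR's quasi-likelihood test, Benjamini-Hochberg adjusted p under 0.05 over all 11384 genes), and 23 did not pass the test. Over all genes tested, 8.29% were called higher, 5.85% lower and 14.1% in either direction. The median log2 fold change of the members was 0.17 and that of all genes tested was −0.015. When edgeR was scaled by DESeq2's factors, 69.6% of all calls were higher in RES instead of 58.6%, and all 13 members were still called in the same direction. The changes were divided by role. Chaperones were called higher in 8 of 12 and disulfide isomerases and oxidases in 3 of 6, while degradation had 1 of 8 called, lower, sensors 0 of 4 and translocation 1 of 6, higher. For the sensors, 1 gene (ERN1) had an unadjusted p under 0.05, 0 were called by DESeq2 and 1 by voom. Over all genes tested, 30% had an unadjusted p under 0.05, 18.5% were called by DESeq2 and 28.0% by voom. Fewer GCs of a type and less RNA per cell cannot be told apart in such bulk samples.

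**Figure D1:**
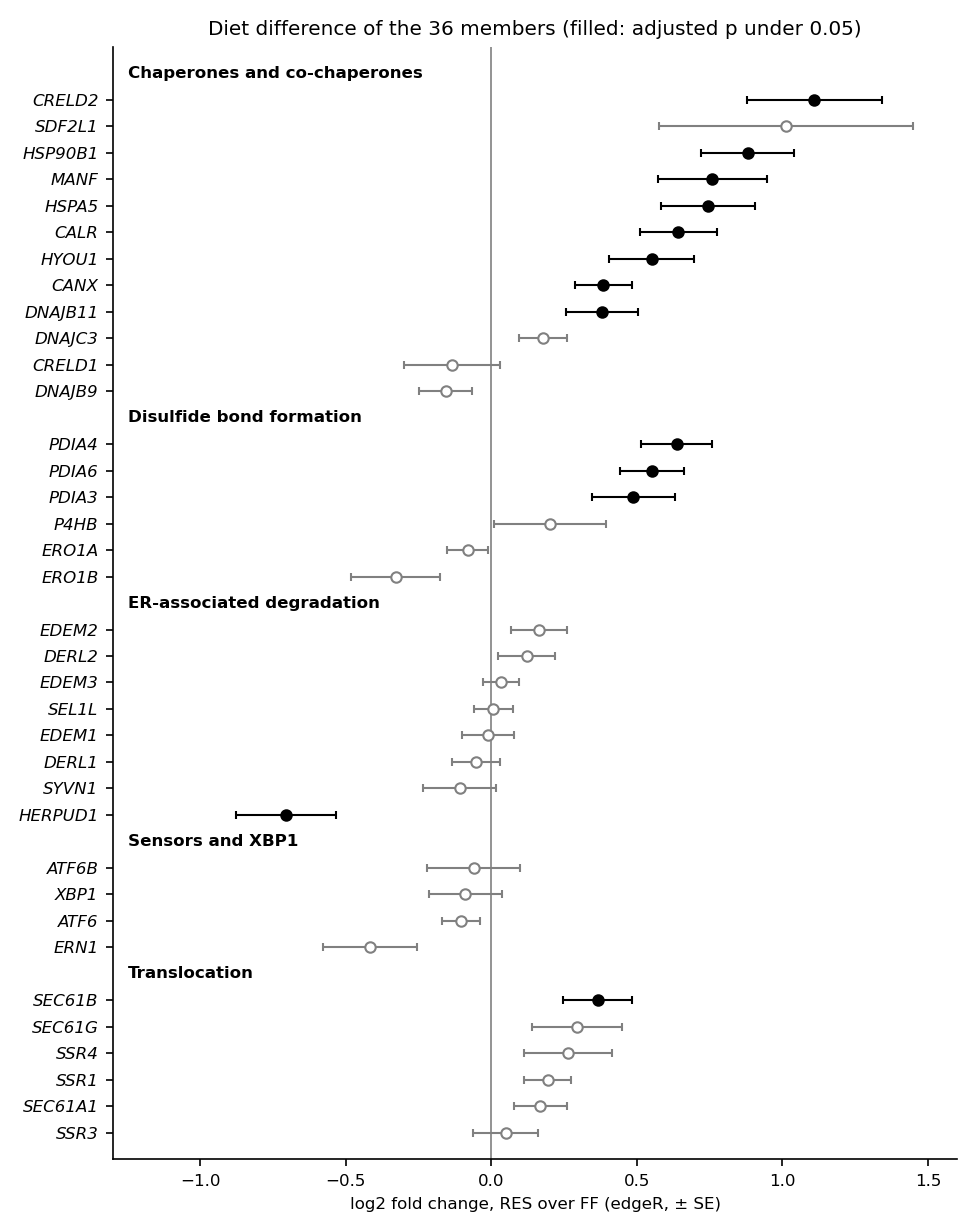
Log2 fold change of each of the 36 members, RES over FF, with the standard error from edgeR (horizontal axis, log2 units), ordered within the subgroups. Filled points have an adjusted p under 0.05. The 12 filled points to the right of 0 are chaperones, disulfide isomerases and SEC61B, and the 1 to the left is HERPUD1 at −0.71.

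HSPA5 (ENSSSCG00000005601, chr1:265930044-265934959), the main ER chaperone of the Hsp70 class, also known as BiP, holds the IRE1, ATF6 and PERK sensors inactive when bound to them. Its normalized count in FF GCs was 2316 at the lowest, 4775 at the median and 7419 at the highest, and in RES GCs 4754, 8164 and 14393. In RES GCs 13 of 14 sows lay above the FF median and 8 above the highest FF sow, while the ranges overlapped. The log2 fold change was 0.75 (SE 0.16, edgeR adjusted p = 0.00316), or 1.68-fold.

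HSP90B1 (chr5:80511513-80531016), the ER member of the Hsp90 family, ranged from 9516 over 17564 to 29408 in FF GCs (lowest, median, highest) and from 20900 over 38411 to 49390 in RES GCs. All 14 RES sows were above the FF median, and 9 of 13 FF sows were below the lowest RES sow. The log2 fold change was 0.88 (SE 0.16, edgeR adjusted p = 0.00183), or 1.84-fold. Its printed promoter holds an ERSE on its own strand and another on the opposite strand nearer the start.

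Calreticulin (CALR) and calnexin (CANX) are lectin chaperones that hold glycoproteins while they fold. CALR was at 2342, 3947 and 5165 normalized counts in FF GCs (lowest, median, highest) and at 3476, 6335 and 11007 in RES GCs. CANX was at 3443, 5202 and 5838 in FF GCs and at 4851, 6777 and 9038 in RES GCs. For CALR 10 and for CANX 9 RES sows exceeded every FF sow. The log2 fold changes were 0.64 for CALR (SE 0.13, edgeR adjusted p = 0.00251) and 0.38 for CANX (SE 0.10, edgeR adjusted p = 0.00923).

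Among the co-chaperones and ER-resident secreted factors, CRELD2 had the largest called change of all members. It went from 6.61, 34.6 and 51.7 in FF GCs (lowest, median, highest) to 26.0, 66.8 and 161 in RES GCs, a log2 fold change of 1.11 (SE 0.23, edgeR adjusted p = 0.00277). MANF, a small ER protein that binds HSPA5, went from 375, 1034 and 1472 to 983, 1664 and 3214, a log2 fold change of 0.76 (SE 0.19, edgeR adjusted p = 0.00782). In both genes the ranges overlapped, with 9 RES sows above all FF sows for CRELD2 and 10 for MANF.

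HYOU1, an Hsp110-type nucleotide exchange factor for HSPA5, was at 306, 478 and 769 in FF GCs and at 473, 730 and 1414 in RES GCs (lowest, median, highest). The log2 fold change was 0.55 (SE 0.15, edgeR adjusted p = 0.0131). DNAJB11, a J-domain partner of HSPA5, was at 377, 515 and 815 in FF and at 336, 740 and 959 in RES GCs, with a log2 fold change of 0.38 (SE 0.12, edgeR adjusted p = 0.0358). The RES range of DNAJB11 enclosed the FF range. Its call was lost when any of 11 single libraries was left out, among them RES sow 3.

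The other 4 chaperone members were not called. SDF2L1, a partner of the J-domain proteins, had a log2 fold change of 1.01 with an SE of 0.44, at medians of only 3.81 normalized counts in FF and 7.21 in RES GCs, with 3 FF libraries at 0. DNAJC3 and DNAJB9, further J-domain partners of HSPA5, had log2 fold changes of 0.18 (SE 0.08) and −0.16 (SE 0.09). For CRELD1, the paralog of CRELD2, the log2 fold change was −0.13 (SE 0.16).

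**Figure D2:**
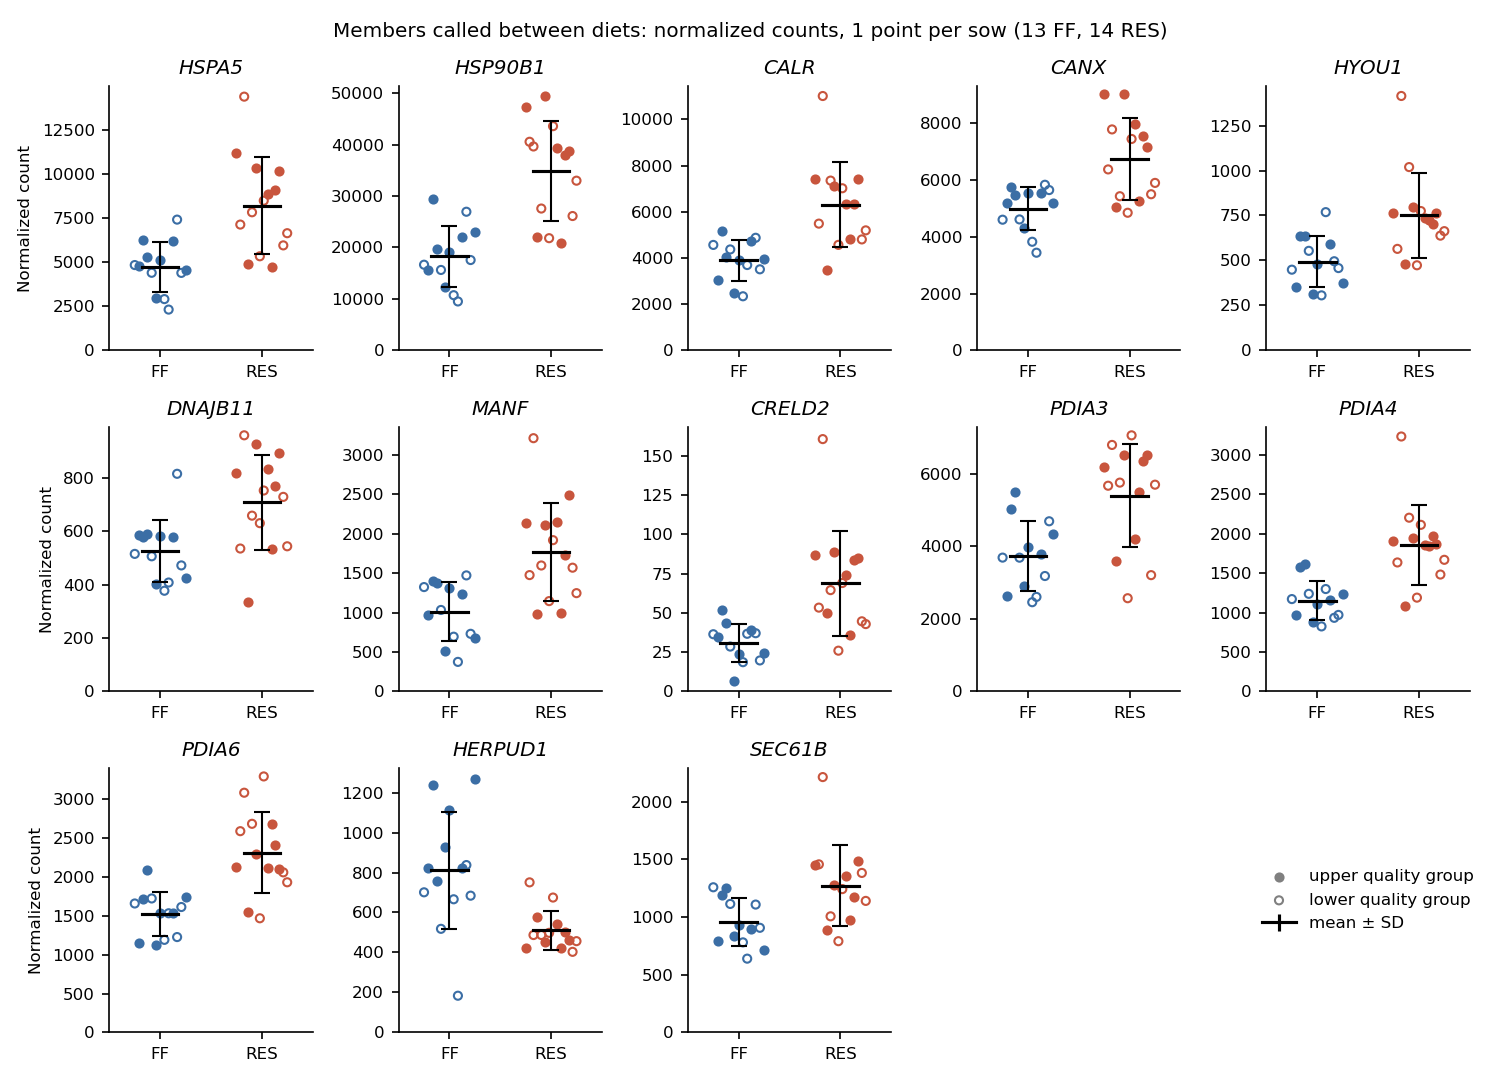
Normalized counts (vertical axes, from 0) of the 13 members called between the diets, 1 point per sow, with 13 FF and 14 RES sows. Filled points are libraries of the upper and open points of the lower base quality group, and bars show the mean and SD. The RES points sit higher in 12 panels with overlapping ranges, and for HERPUD1 all 14 RES points lie below the FF median of 820.

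Protein disulfide isomerases form and rearrange the disulfide bonds of proteins in the ER. PDIA3, which works with calnexin and calreticulin on glycoproteins, was at 2459, 3688 and 5497 normalized counts in FF GCs (lowest, median, highest) and at 2569, 5726 and 7058 in RES GCs. PDIA4 was at 825, 1163 and 1614 in FF and at 1078, 1865 and 3235 in RES GCs. PDIA6, which also binds the IRE1 sensor, was at 1123, 1536 and 2090 in FF and at 1468, 2206 and 3292 in RES GCs.

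For PDIA4 and PDIA6, 11 and 10 RES sows lay above every FF sow, and for PDIA3 9 did. The log2 fold changes were 0.49 for PDIA3 (SE 0.14, edgeR adjusted p = 0.0223), 0.64 for PDIA4 (SE 0.12, adjusted p = 0.00194) and 0.55 for PDIA6 (SE 0.11, adjusted p = 0.00194). PDIA3 was not called with a block for replicate number (edgeR adjusted p = 0.0759). P4HB, the classical isomerase, had 0.20 (SE 0.19) and was not called, although 13 of 14 RES sows were above its FF median. The oxidases ERO1A and ERO1B, which pass oxidizing equivalents to the isomerases, had −0.08 (SE 0.07) and −0.33 (SE 0.15), and neither was called.

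Of the 8 genes of ER-associated degradation, HERPUD1 alone was called. It encodes a membrane protein that gathers the degradation complex around the SYVN1 ligase. HERPUD1 (ENSSSCG00000040663, chr6:18901171-18913427) was at 184, 820 and 1269 normalized counts in FF GCs (lowest, median, highest) and at 403, 487 and 751 in RES GCs.

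All 14 RES sows were below the FF median of HERPUD1. The lowest value was in FF sow 10, below the entire RES range. The log2 fold change was −0.71 (SE 0.17, edgeR adjusted p = 0.00663), or 0.613-fold, and it was −0.79 without FF sow 10.

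The other degradation genes were close to 0. SEL1L, the partner of SYVN1, had 1483, 2161 and 2706 in FF and 1909, 2185 and 2696 in RES GCs (lowest, median, highest), with a log2 fold change of 0.0070 (SE 0.066). EDEM3, a mannosidase that marks glycoproteins for degradation, had 930, 1089 and 1221 in FF and 922, 1136 and 1357 in RES GCs, with 0.032 (SE 0.061). The ranges overlapped, with 4 RES sows above every FF sow for EDEM3 and 0 for SEL1L. SYVN1, DERL1, DERL2, EDEM1 and EDEM2 had log2 fold changes between −0.11 and 0.16.

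No sensor gene was called. ATF6, the membrane-bound transcription factor, was at 2012, 3250 and 3911 in FF and at 2670, 3072 and 3316 in RES GCs (lowest, median, highest), a log2 fold change of −0.10 (SE 0.07). XBP1 was at 586, 950 and 1470 in FF and at 525, 948 and 1298 in RES GCs, with −0.09 (SE 0.13). The medians of XBP1 were thus nearly equal although its promoter window holds an ERSE. ATF6B had −0.06 (SE 0.16), and ERN1 had −0.42 (SE 0.16, edgeR adjusted p = 0.0779), with 12 of 14 RES sows below its FF median. ERN1 passed the threshold without FF sow 10, RES sow 7 or RES sow 10, and with voom. ATF6 passed it, lower, without FF sow 10 (−0.14, edgeR adjusted p = 0.048).

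Within translocation, SEC61B, the beta subunit of the channel, was at 639, 907 and 1258 in FF GCs and at 791, 1258 and 2213 in RES GCs (lowest, median, highest). The log2 fold change was 0.37 (SE 0.12, edgeR adjusted p = 0.037), and the call was lost when any of 12 single libraries was left out. SSR3, a subunit of the translocon-associated protein complex, was at 747, 1941 and 2272 in FF and at 1504, 2032 and 2674 in RES GCs, with 0.05 (SE 0.11). SSR1, of the same complex, was at 967, 1127 and 1483 in FF and at 998, 1371 and 1793 in RES GCs, with 0.19 (SE 0.08, edgeR adjusted p = 0.105). SSR1 was called by DESeq2's Wald test and by voom. SEC61A1, SEC61G and SSR4 had 0.17, 0.29 and 0.26 and were not called.

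The promoter elements described above were set beside these differences. Of the 11 members with an exact ERSE or ERSE-II, 8 were called higher and 0 lower, at a median change of 0.64 (log2), and the 3 not called were SDF2L1, SEL1L and XBP1. Of the 25 members without either, 4 were called higher (DNAJB11, PDIA3, PDIA4 and SEC61B) and 1 lower (HERPUD1), with a median of 0.05. Outside the members, 15 other tested genes held an ERSE or ERSE-II in the same window, and 0 of these were called in either direction by edgeR, with a median of −0.08, against 1 at an unadjusted p under 0.05, 1 with DESeq2 and 2 with voom. Their log2 fold changes ran from −0.29 to 0.42. Most members with an element are chaperones, so this split overlaps with the division by role and is not separate from it. No test was made of these counts, since the members had been chosen with results of these data known.

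Genes of related lists were counted in the same fit. In the PERK branch DDIT3, a transcription factor induced under prolonged ER stress, was called lower at −0.47 (SE 0.14, edgeR adjusted p = 0.0209, 0.0575 with a replicate block), and 5 of 6 tested genes were not called, ATF4 having 0.18 (SE 0.10). In glycosylation and glucose trimming 6 of 17 were called higher and 0 lower, with a median of 0.28, including the oligosaccharyltransferase subunits RPN1 at 0.41 (SE 0.08, edgeR adjusted p = 0.0025) and STT3A at 0.38 (SE 0.09), the small subunit TMEM258 at 0.53 (SE 0.18) and RPN2 at 0.34 (SE 0.09). DESeq2 called 10 and voom 11 of the 17, against 18.5% and 28.0% of all genes, and TMEM258 was called in only 9 of the 27 fits that left out a single library. Of 25 further folding genes, 3 were called higher, GPX7 at 0.50 (SE 0.10), FKBP11 at 0.46 (SE 0.11) and PRDX4 at 0.35 (SE 0.12). DESeq2 called 7 and voom 6 of the 25, which for voom is below its share of all genes, and PRDX4 was called in 10 of the 27 single-library fits.

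Among 9 tested genes of retrieval and sensor processing, KDELR2 at 0.42 (SE 0.09) and KDELR3 at 0.38 (SE 0.12) were called higher. Both are receptors that return chaperones from the Golgi to the ER. MBTPS1, the protease that first cleaves ATF6 in the Golgi, was called lower at −0.34 (SE 0.11). Of the 9, 5 had an unadjusted p under 0.05, 4 were called by DESeq2 and 5 by voom. With single libraries left out, KDELR3 was called in 15 and MBTPS1 in 17 of 27 fits. In the longer degradation list 3 of 18 tested genes were called lower and 0 higher, NGLY1 at −0.29 (SE 0.10), UBE2J1 at −0.27 (SE 0.08) and HERPUD2 at −0.22 (SE 0.07). Of these 18, 5 had an unadjusted p under 0.05, 2 were called by DESeq2 and 4 by voom. The shares of all genes tested were 30%, 18.5% and 28.0%, so these counts were below them. Of the 27 single-library fits UBE2J1 was called in 24, NGLY1 in 13 and HERPUD2 in 6, and of the 10 alternative fits in 7, 5 and 4. Of 17 genes of targeting, translocon and signal peptidase, only SEC11C was called, higher at 0.49 (SE 0.14). Among 8 tested cytosolic heat shock genes, which answer to another stress pathway, HSP90AA1 at 0.56 (SE 0.12), HSPH1 at 0.54 (SE 0.19) and HSP90AB1 at 0.30 (SE 0.07) were called higher and 0 lower. HSPH1 was called in 11 of 27 single-library and 5 of 10 alternative fits, had an adjusted p of 0.162 with a replicate block, and had a log2 fold change of 0.92 in upper-quality and 0.05 in lower-quality libraries, the groups described below. HSP90AA1 had 0.83 and 0.25 in these groups (edgeR interaction p = 0.011, adjusted p = 0.304).

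Total counts ran from 12299220 to 16021200 in FF and from 12942198 to 18120922 in RES libraries. Of the granulosa markers, 0 of 10 tested were called in either direction, and their summed normalized count ran from 78490 to 128900 in FF and from 79180 to 157100 in RES GCs, with FOXL2 not analysed here. Of these 10, only INHBB had an unadjusted p under 0.05, and DESeq2 and voom each called 1. Markers of other cells were lower in RES GCs in part. CYP11A1, 1 of 6 tested theca markers, was called at −1.28 (SE 0.33, 3 of 6 at an unadjusted p under 0.05, 2 called by DESeq2 and 3 by voom), with theca sums of 1746 to 5752 in FF and 882 to 4875 in RES GCs. The endothelial genes EMCN and CDH5 were called at −0.78 (SE 0.16) and −0.56 (SE 0.15), 2 of 7 tested (4 at an unadjusted p under 0.05, 3 called by DESeq2 and 5 by voom), with sums of 1210 to 2415 and 840 to 2414. PDGFRB, 1 of 8 stroma markers, was called at −0.62 (SE 0.20), in 12 of 27 single-library fits (4 of 8 at an unadjusted p under 0.05, 1 called by DESeq2 and 3 by voom), with sums of 9307 to 27240 and 7835 to 24440, and HBB, 1 of 2 tested erythroid markers, at −1.89 (SE 0.53), with sums of 35.5 to 1045 and 9.63 to 148. HBB was at 1003 in FF sow 14, against an FF median of 89.2, and without that sow it had −1.10 (edgeR adjusted p = 0.0877) and was not called. The immune sums were 86.1 to 436 and 49.9 to 346, with 0 of 5 called (2 at an unadjusted p under 0.05, 0 with DESeq2 and 2 with voom), and the oocyte sums 168 to 366 and 151 to 321, with 0 of 2 called or under an unadjusted p of 0.05. Their part in the differences of the folding genes was not tested.

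Libraries were also split by base quality, at a share of 98% of bases that scored 20 or more. The upper quality group held 7 FF and 7 RES libraries and the lower 6 FF and 7 RES. All 13 called members kept their sign in both quality groups. They had been called on these same libraries, so like signs in both parts were likely beforehand. Of all 36 members, 26 kept their sign. The called chaperones had values of like size in either group, with HSPA5 at 0.70 (SE 0.20) and 0.81 (SE 0.25), upper group first, and HSP90B1 at 0.81 (SE 0.21) and 0.99 (SE 0.23). For HYOU1, and less so for CANX, this likeness depended on FF sow 10, whose placing in the lower group is uncertain. HYOU1 had 0.51 (SE 0.16) and 0.58 (SE 0.24), but 0.40 (SE 0.18) in the upper group with FF sow 10 placed there and 0.76 (SE 0.22) in the lower group without it. CANX had 0.42 (SE 0.12) and 0.36 (SE 0.14), and 0.48 (SE 0.13) and 0.29 (SE 0.14) in these same fits. Median log2 fold changes of the chaperones were 0.56 and 0.63, and those of the disulfide genes 0.28 and 0.41. In the upper group edgeR called 12 members (9 higher, 3 lower), where 17.8% of all genes were called, and 19 had an unadjusted p under 0.05, against 34.2% of all genes. With FF sow 10 placed in the upper group, edgeR called 8 members there (7 higher, and HERPUD1 lower), where 9.07% of all genes were called. In the lower group as split here edgeR called 0 members, where only 0.00878% of all genes were called, but 11 members had an unadjusted p under 0.05, all higher, against 12.2% of all genes. Without FF sow 10 the lower group had 10 such members, against 1325 of 11384 genes. Among those 10, HERPUD1 was lower (edgeR p = 0.035).

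HERPUD1 did not show this likeness. Its log2 fold change was −1.07 (SE 0.14) in the upper and −0.19 (SE 0.25) among the lower-quality libraries. With FF sow 10 left out the lower group gave −0.38 (SE 0.17), and with it placed in the upper group that group gave −0.92 (SE 0.26). All 13 called members, which had been called on the same libraries, kept their sign in these fits too. ERO1B had −0.62 (SE 0.17) and 0.06 (SE 0.22), and DNAJB9 −0.32 (SE 0.10) and 0.05 (SE 0.14), and both were called in the upper group only. With FF sow 10 placed in the upper group neither was called there, ERO1B having −0.54 (SE 0.19, edgeR adjusted p = 0.0743) and DNAJB9 −0.22 (SE 0.15, adjusted p = 0.344). For the interaction of diet and quality group edgeR called 0 genes, 5 members had an unadjusted p under 0.05 against 12.3% of all genes, and that of HERPUD1 was 0.00602 (adjusted p = 0.269). With FF sow 10 left out edgeR also called 0 genes, 2 members had an unadjusted p under 0.05 against 7.83% of all genes, and HERPUD1 had an interaction p of 0.00397 (adjusted p = 0.386). With FF sow 10 in the upper group it called 0 genes, 0 members had an unadjusted p under 0.05 against 4.58% of all genes, and HERPUD1 had 0.121. A difference between the quality groups was therefore not shown for any member.

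**Figure D3:**
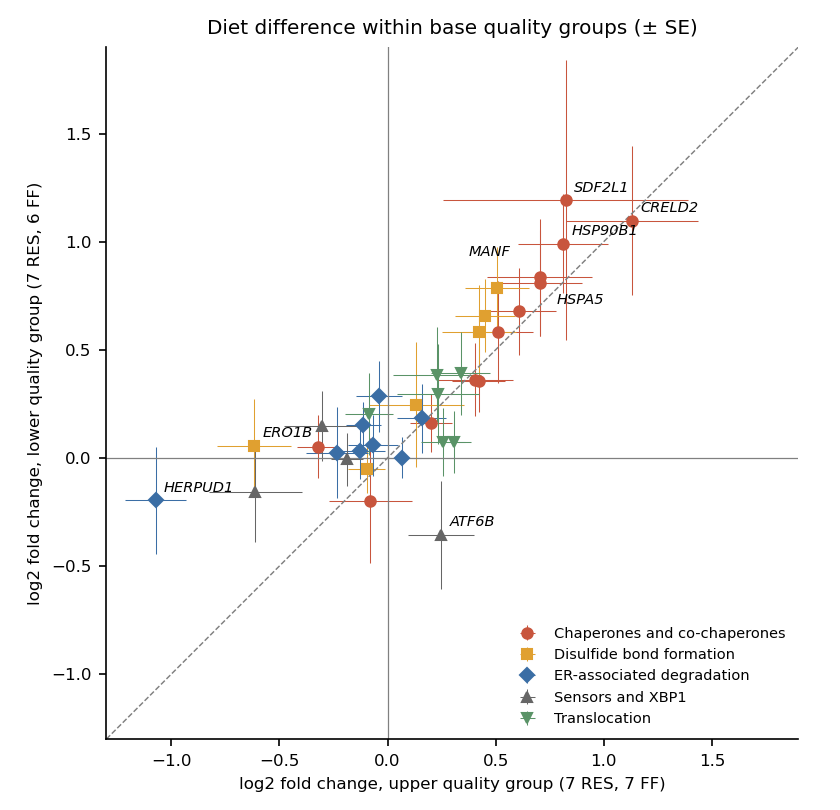
Log2 fold change of each member, RES over FF, within the upper (horizontal axis) and the lower (vertical axis) base quality group, with standard errors, coloured by subgroup. The dashed line marks equal values. The called chaperones lie along it, while HERPUD1 sits at −1.07 on the horizontal and −0.19 on the vertical axis, with FF sow 10, of uncertain placing, in the lower group.

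Co-expression was then measured between sows. Each sow's deviation from its diet mean of log2(normalized count + 1) was used, so that the diet difference itself could not produce a correlation. Over the 630 pairs of members the median Pearson's r was 0.34 and 31.3% of pairs were over 0.5. Over all pairs of tested genes the median was 0.0085 and 5.51% were over 0.5. All pairs share the same 27 libraries and their scaling. Within the FF sows alone the median was 0.29, and within the RES sows 0.42.

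The subgroups differed in how closely their members went together. Median r was 0.65 over the 66 pairs of chaperones, 0.59 over the 15 of translocation, 0.42 over the 28 of degradation, 0.13 over the 15 of disulfide formation and −0.0034 over the 6 of the sensor genes. Among the 10 closest pairs were HSPA5 with MANF (r = 0.92), HSP90B1 with CANX (0.91) and HSPA5 with HSP90B1 (0.89). Among them were also pairs without HSPA5, HYOU1 with PDIA4 (0.87), SEC61B with SEC61G (0.86), DERL2 with SSR3 (0.85) and PDIA4 with PDIA6 (0.85). These pairs were named for their high r among the 630, and the pairs with HSPA5 are tested below.

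Among the disulfide genes the isomerases and the oxidases did not go together. PDIA3, PDIA4 and PDIA6 had r of 0.74 to 0.85 with one another, and P4HB had 0.75 with PDIA4, 0.70 with PDIA6 and 0.34 with PDIA3. ERO1A and ERO1B had −0.14 to 0.13 with those 3 isomerases and −0.37 and −0.41 with P4HB, and r between ERO1A and ERO1B themselves was 0.24 (0.53 in FF and −0.36 in RES).

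Single sows stood at the ends of many members. FF sow 10 was the lowest FF sow for 18 of 36 members, RES sow 3 the highest RES sow for 21, and RES sow 4 the lowest RES sow for 14. The library of RES sow 3 was in the lower quality group. It had the highest total count (18120922) and the fewest genes with a count (21604) of all libraries. Without FF sow 10 and RES sow 3 the median r was 0.25 over all members and 0.68 over the chaperones, but 0.17 over the degradation genes. HERPUD1 and SEL1L had r = 0.91 in FF and 0.10 in RES GCs, and 0.49 over both diets without these sows. HERPUD1 and DNAJB9 had 0.73, and 0.30 without FF sow 10. The lowest pair was HERPUD1 with ATF6B at −0.65, which was −0.47 without both sows.

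**Figure D4:**
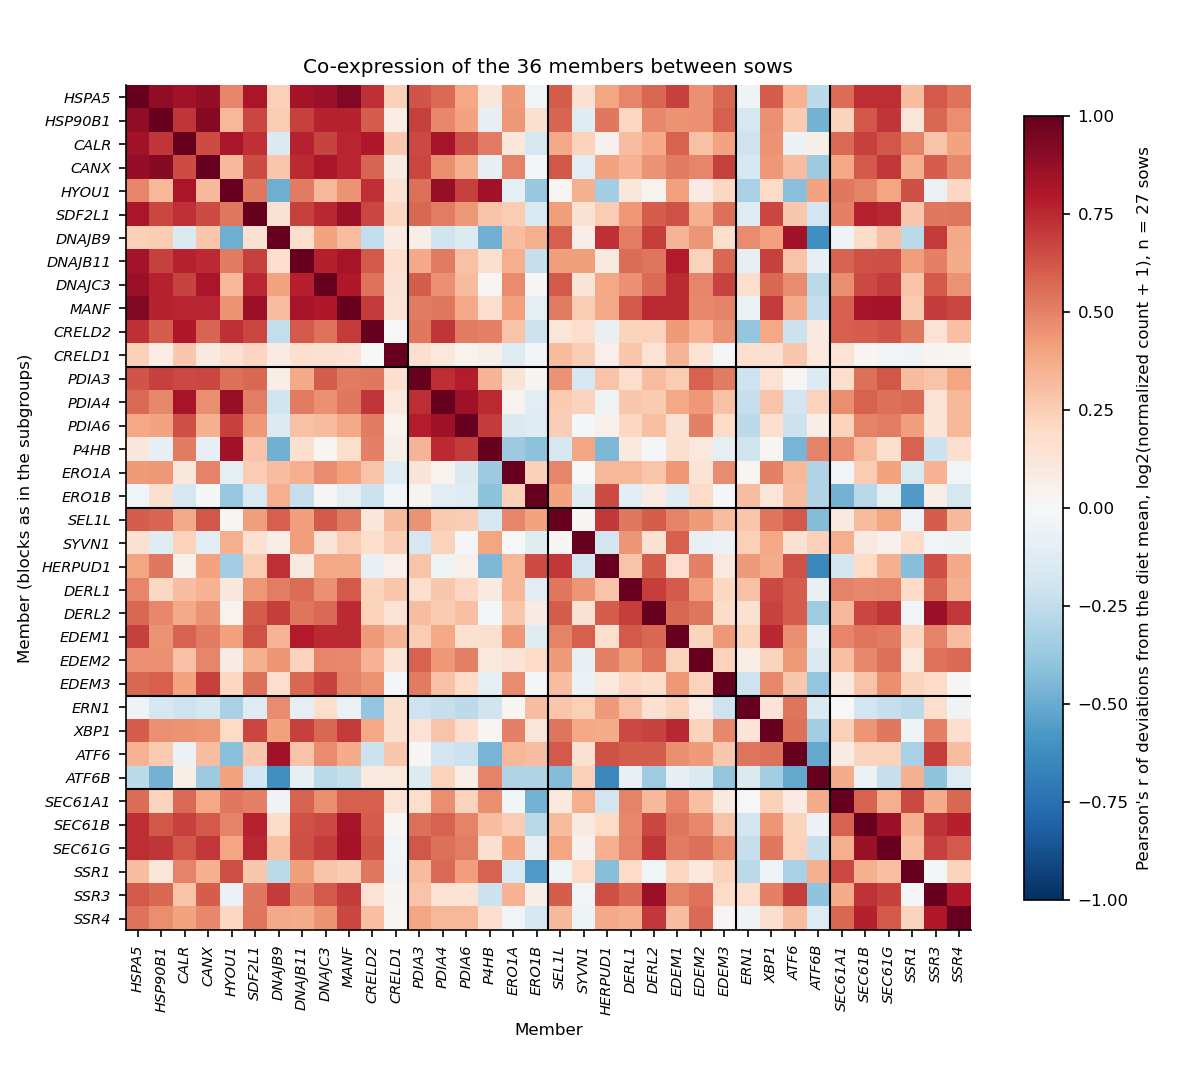
Pearson's r for every pair of the 36 members over 27 sows, from deviations of log2(normalized count + 1) from the diet mean, with colour from −1 (blue) to 1 (red) and black lines between the subgroups. The chaperone block has a median r of 0.65, and rows such as ATF6B, ERN1 and ERO1B are pale or blue.

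HSPA5 was correlated with each of the 11383 other tested genes. Permutation within diets, 100000 times, gave p values that were adjusted over all 11383. With an adjusted p under 0.05, 20 of 35 members had r above 0 and 0 had r below 0, against 9.89% and 2.13% of all genes. With Spearman's rho 15 members passed above 0 and 0 below, against 8.55% and 2.09% of all genes. SSR3, SEL1L, DERL2, PDIA4, SEC61A1 and SSR4 passed for r and not for rho. The median r with HSPA5 was 0.57 over the members and 0.07 over all genes. Of the 10 genes with the highest r, 6 were members, namely MANF, HSP90B1, CANX, DNAJC3, CALR and DNAJB11.

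MANF had r = 0.92 and Spearman's rho = 0.91 with HSPA5 (permutation test, p = 1e-05 each, the smallest that the permutations can give, adjusted p = 0.0015 and 0.0023). Its r was 0.90 in FF, 0.96 in RES, 0.92 in upper-quality and 0.93 in lower-quality libraries, and 0.89 without FF sow 10 and RES sow 3, the sows farthest from the HSPA5 median. For HSP90B1, CANX, DNAJC3, CALR and DNAJB11 r lay between 0.84 and 0.89 and was 0.81 to 0.91 without those sows, with the same permutation p for r. DNAJC3 thus followed HSPA5 closely between sows (r = 0.86) although it was not called between the diets.

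The non-members among the 10 were EPRS1, a transfer RNA synthetase (r = 0.90), NANS, an enzyme of sialic acid synthesis (0.86), and the proteasome genes PSMC1 (0.86) and PSMD5 (0.84). Their r without the same sows was 0.86, 0.82, 0.79 and 0.77.

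Among the translocation genes SEC61G and SEC61B had r = 0.74 each with HSPA5 (permutation test, adjusted p = 0.0028 and 0.0021, rho = 0.75 and 0.68). XBP1 had r = 0.61 and rho = 0.54 (permutation test, adjusted p = 0.015 and 0.047), with 0.71 in FF, 0.50 in RES and 0.47 without the farthest sows. EDEM1 had r = 0.69 and rho = 0.72 (permutation test, adjusted p = 0.0066 and 0.0038). XBP1 and EDEM1 rose and fell with HSPA5 between sows of the same diet, and neither was called between the diets.

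For some called members r with HSPA5 was lower. PDIA6 had r = 0.39 (permutation test, adjusted p = 0.18; rho = 0.26). HYOU1 had r = 0.49 (permutation test, adjusted p = 0.069) and rho = 0.55 (adjusted p = 0.044), so that it passed the threshold for rho and not for r. Its r was 0.22 in FF, 0.75 in RES, 0.70 in upper-quality and 0.41 in lower-quality libraries, and 0.69 without the farthest sows. HERPUD1 had r = 0.39 and rho = 0.26 (permutation test, adjusted p = 0.17 and 0.42), with 0.63 in FF, −0.05 in RES and 0.13 without the farthest sows. SSR1 had −0.25 in FF and 0.73 in RES, and ATF6B −0.74 in FF and 0.18 in RES, differences between the diets that were not tested. ERN1 had −0.80 among upper-quality and 0.44 among lower-quality libraries.

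**Figure D5:**
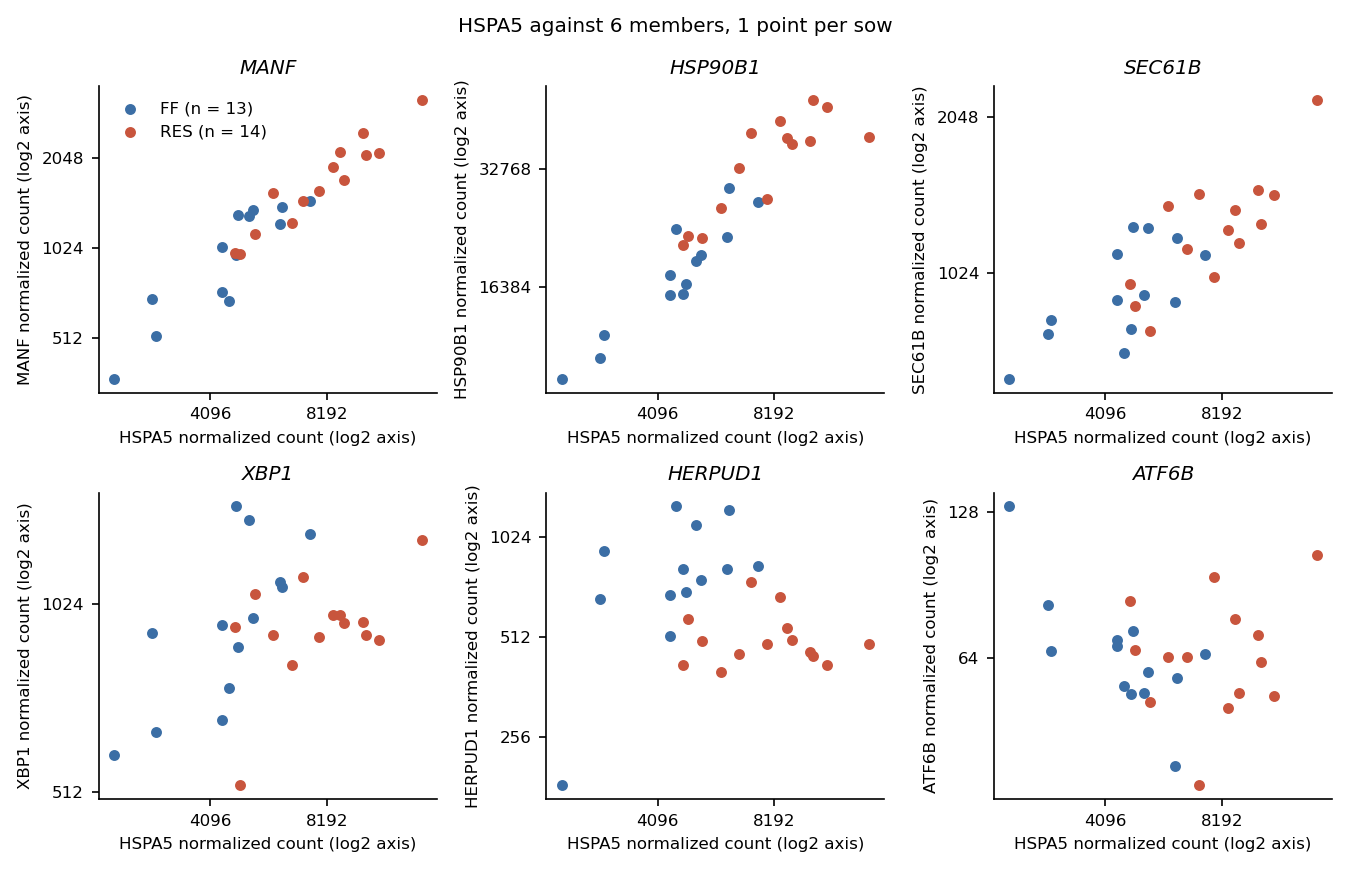
Normalized count of HSPA5 (horizontal axes, log2 scale) against that of 6 other members (vertical axes, log2 scale), 1 point per sow, FF in blue and RES in red. MANF and HSP90B1 rise with HSPA5 along a single band, while the RES points of HERPUD1 lie between 403 and 751 at any HSPA5 count.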

How the data were processed

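Libraries of total RNA from mural GCs of 27 sows were depleted of ribosomal RNA, made with unique molecular identifiers and sequenced by the authors. Per the submitters' processing notes, HISAT2 2.2.1 (Sscrofa11.1), UMI-tools 1.1.4, SAMtools 1.16.1 and featureCounts 1.6.2 were used. The deposited values are raw counts per Ensembl gene, 1 file per sow. The kit marks strand, but no strand setting for counting is given in the sources used here, so overlapping genes on opposite strands may share reads.

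Genes with a symbol and a mean count of at least 5 were tested, leaving out 38 small RNA genes. Groups came from the sample labels. RES was compared with FF by edgeR 4.0.16 (TMM, quasi-likelihood, R 4.3.3), with DESeq2 1.42.0 and limma 3.58.1 (voom) as alternatives, on all 27 libraries without covariates. Normalized counts are counts divided by DESeq2 size factors, while fold changes come from edgeR's own scaling. Correlations used log2(normalized count + 1). Both scripts were tested on simulated data. The edgeR fit recovered 44.8% of simulated 1.5-fold, 76.1% of 2-fold and 98.5% of 4-fold changes. A gene not called may therefore still differ. Each library held 12299220 to 18120922 counts, so sampling error is small beside the spread between sows except in genes such as SDF2L1.

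The members and lists were chosen with earlier results of these data known. Lowest, median and highest values are given for every called member, HSPA5, XBP1 and the 2 members of highest mean in each subgroup. Also named are at most 4 called genes per other list by size of change, with fold changes, and the 10 genes with the highest r with HSPA5. The sample records name FF sow 9 as left out for low RIN, while in the study's RNA quality table the lowest RIN stands beside FF sow 10, so the RIN and base quality group of FF sow 10 are uncertain. Protein features were not computed, and 1 gene of the longer degradation list is not reported here.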

Additional observations from a re-analysis of the deposited data

How the results depend on the processing

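Over 10 alternative fits, 10 to 15 members were called, against 13. With voom and sample quality weights 3193 genes of all were called instead of 1610, and 2 members instead of 1 were lower. Leaving out each library in turn gave 1182 to 2350 genes and 11 to 17 members called, with 1 to 4 of them lower. The highest member count came without FF sow 10, where DNAJB9, ATF6 and ERN1 were also called lower and SSR1 higher. The median log2 fold change of the members stayed between 0.13 and 0.19. The sows carry replicate numbers that do not pair them: deviations of same-numbered sows had r from −0.24 to 0.31, and for 0 of 13 FF sows was the RES sow of the same number the best match. With a replicate block, 1084 genes and 10 members were called, and DNAJB11 (adjusted p = 0.0809), PDIA3 (0.0759) and SEC61B (0.0524) passed the threshold no longer. DNAJB11 was also lost with RIN as covariate (0.0538), a covariate whose value for FF sow 10 is uncertain.

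Signs turned only for values near 0. SEL1L was −0.014 with upper-quartile factors, −0.0032 with filterByExpr and −0.0022 with RIN as covariate. EDEM1 was 0.032 with DESeq2's size factors and with DESeq2, 0.034 over all identifiers, 0.0012 without a count filter and 0.0020 with the block. ATF6B was 0.050 with RIN as covariate. Leaving out single libraries, SEL1L ran from −0.025 to 0.038, EDEM1 from −0.043 to 0.025, ATF6B from −0.11 to 0.068 and SSR3 from −0.017 to 0.075.

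The median r between members was 0.34, against 0.25 with log2 CPM on TMM factors, 0.27 with Spearman's rho and 0.25 without FF sow 10 and RES sow 3, a choice made after seeing the data. Members with an ERSE numbered 14 with 1 mismatch, against 7. The cause of these shifts was not tested.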
